A study of Mus musculus with 52 samples.

Results

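Molecular chaperones and their co-chaperones were described across single cells of mouse bone marrow. The genes were the protein-coding members of the Hsp70, Hsp110, Hsp90, Hsp60, Hsp10 and small heat shock protein families, the J proteins (Dnaj genes), and the subunits of the cytosolic chaperonin ring (Tcp1 and Cct2 to Cct8). They were chosen by symbol, and they numbered 80 of the 28786 genes in the count table. By the usual place of the protein, 37 belonged to the cytosol and nucleus, 9 to the chaperonin ring, 8 to mitochondria, 13 to the endoplasmic reticulum and 5 to vesicles, and 8 were placed elsewhere or not placed. Cct6a has the biotype of a processed transcript in GENCODE M21 and was kept because the chaperonin subunits were listed by name.

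Hsp70 proteins bind unfolded stretches of other proteins and release them in a cycle driven by ATP. J proteins bring clients to Hsp70 and start that cycle, and Hsp110 proteins exchange the nucleotide that ends it. Hsp90 acts later on kinases and receptors, the chaperonin ring folds actin and tubulin in a closed chamber, and mitochondria and the endoplasmic reticulum hold Hsp70, J and Hsp60 or Hsp90 proteins of their own. Some of these genes are always on and others are switched on by heat shock factor 1 or by the unfolded protein response. Blood progenitors that commit to the red cell lineage make large amounts of a few proteins, and Klf1 is a transcription factor of that lineage, whereas Cd34 marks earlier progenitors of the mouse. Fos belongs to the immediate early genes, which respond within minutes to growth factors and to cell handling.

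The series held 52 Smart-seq2 libraries, each made from 1 cell without molecular identifiers, and all carried the single label of primed HSCs (haematopoietic stem cells). The mice were C57BL/6, had the genotype Cd4-cre;R26Tdtomato and were 6 to 8 weeks old, so every cell shared the Cre recombinase under Cd4 control and the tdTomato reporter at the Rosa26 locus. No source used here gives the number of animals, the plates, the sort gate or what "primed" stands for, so the cells formed 1 sample with no replicate, and no test between cells was made. Cells with at least 50000 reads, at least 1000 genes and at most 20% mitochondrial reads were kept, which left 49.

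The kept cells held 85519 to 12446477 reads and 1527 to 9624 genes with a read. Erythroid genes were the most widespread of the marker lists. Klf1 reached 10 CPM (reads of a gene scaled to the cell's total) in 41 of 49 cells and Gata1 in 39. The stem cell genes Procr, Slamf1 and Ly6a did so in 4, 5 and 4, and Cd34, from the same list, in 14. Summed, that list of stem and progenitor genes had a median of 25.5 CPM over the kept cells, from 0 to 3010. The sum also holds Meis1, Hlf, Mecom, Erg and Flt3, which are not counted singly here. It was not tied to Cd34 alone: in cell 15 it stood at 632 CPM with Cd34 at 0.284. The globin gene Hbb-bs reached 10 CPM in 1 cell, and Cd4, Cd3e, Trbc2 and Bcl11b were at 0 in every kept cell. The sum of the T lineage markers, which adds Cd3d, was at most 1.66 CPM. Cells 9 and 34 stood apart. Cell 9 was the shallowest and held 2304 CPM of the B cell gene Cd79a, against at most 85.4 elsewhere, and cell 34 held 39230 CPM of the myeloid gene Lyz2, against at most 1408. The profiles of cells 6 and 13 correlated at 0.936 on the log scale, the highest of all pairs (median 0.490), and those of cells 23 and 25 at 0.775. For some of the results below, but not all, values without cells 9, 13, 23 and 34 are given.

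Sequences before the start sites show which of these genes share known regulatory letters, and are given here because pairs of them are compared below. Of the 80 genes, 65 had an entry in the RefSeq promoter table (GRCm38.p6), and the 250 bases before each start were searched on both strands. The heat shock element is a run of GAA and TTC units. A match of 3 units, GAANNTTCNNGAA or TTCNNGAANNTTC, was present in 153 of all 32851 promoter windows (0.466%), or 139 of 27025 genes. It was present in 3 of the 65 chaperone genes, Hspd1, Hspe1 and Dnajb6. Hspd1 and Hspe1, the mitochondrial Hsp60 and its lid Hsp10, lie head to head on chromosome 1 and hold the same stretch on opposite strands, at chr1:55088057-55088083 on the minus strand and chr1:55088052-55088078 on the plus strand. GENCODE M21 places both windows in the untranslated first exon of a longer Hspd1 transcript. Capitals mark the overlapping 3-unit matches.
Hspd1: cggggccTTCCGGAAGGTTCTAGAAcg
Hspe1: cggtccgTTCTAGAACCTTCCGGAAgg

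The endoplasmic reticulum stress element, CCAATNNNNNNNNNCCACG, was present in 37 of the 32851 windows (0.113%), or 35 of 27025 genes, and in 3 of the 65 chaperone genes. These were Hspa5 (BiP, the Hsp70 of the endoplasmic reticulum), Hsp90b1 (GRP94, its Hsp90) and Dnajc3, a J protein that works with BiP. The 4 matches with their flanks lay at chr2:34772020-34772048 on the plus strand for Hspa5, at chr10:86705633-86705661 and chr10:86705528-86705556 on the minus strand for Hsp90b1, and at chr14:118937822-118937850 on the plus strand for Dnajc3. Capitals mark the element, which the second Hsp90b1 match holds in the reverse orientation.
Hspa5: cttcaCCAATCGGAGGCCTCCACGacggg
Hsp90b1, far match: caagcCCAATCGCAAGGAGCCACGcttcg
Hsp90b1, near match: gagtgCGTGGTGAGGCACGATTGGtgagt
Dnajc3: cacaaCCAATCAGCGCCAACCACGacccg

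A shorter match of 2 heat shock units, GAANNTTC or TTCNNGAA, was present in 12.8% of all windows, or 3932 of 27025 genes. It was present in 16 of the 65 chaperone genes, every 3-unit match included. Among those with the 2-unit match were the stress-inducible Hsp70 genes Hspa1a and Hspa1b, whose windows were the same at 247 of 250 bases (98.8%). The 120 bases before each start, at chr17:34972157-34972276 and chr17:34959239-34959358 on the minus strand, are shown because these genes, which heat shock is known to switch on, were silent in almost every cell. Capitals mark the 2-unit match. A match describes the letters only, and a missing match says only that these letters are not in the window.
Hspa1a: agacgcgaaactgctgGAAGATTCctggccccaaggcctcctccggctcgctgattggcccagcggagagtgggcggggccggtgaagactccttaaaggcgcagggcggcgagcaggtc
Hspa1b: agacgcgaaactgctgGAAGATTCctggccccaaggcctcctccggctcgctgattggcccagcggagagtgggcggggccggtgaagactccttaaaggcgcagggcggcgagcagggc

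Chaperone genes together took 1.95% ± 0.47 of a cell's reads (SD, n = 49 cells), from 0.545% in cell 34 to 3.21%. Hspa8 and Hsp90ab1 alone made up 39.2% of those reads. Of the 80 genes, 11 had no read in a kept cell, 17 had reads but a mean under 10 CPM, and 52 averaged 10 CPM or more. In all, 43 genes reached 10 CPM in at least 50% of the cells.

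**Figure D1:**
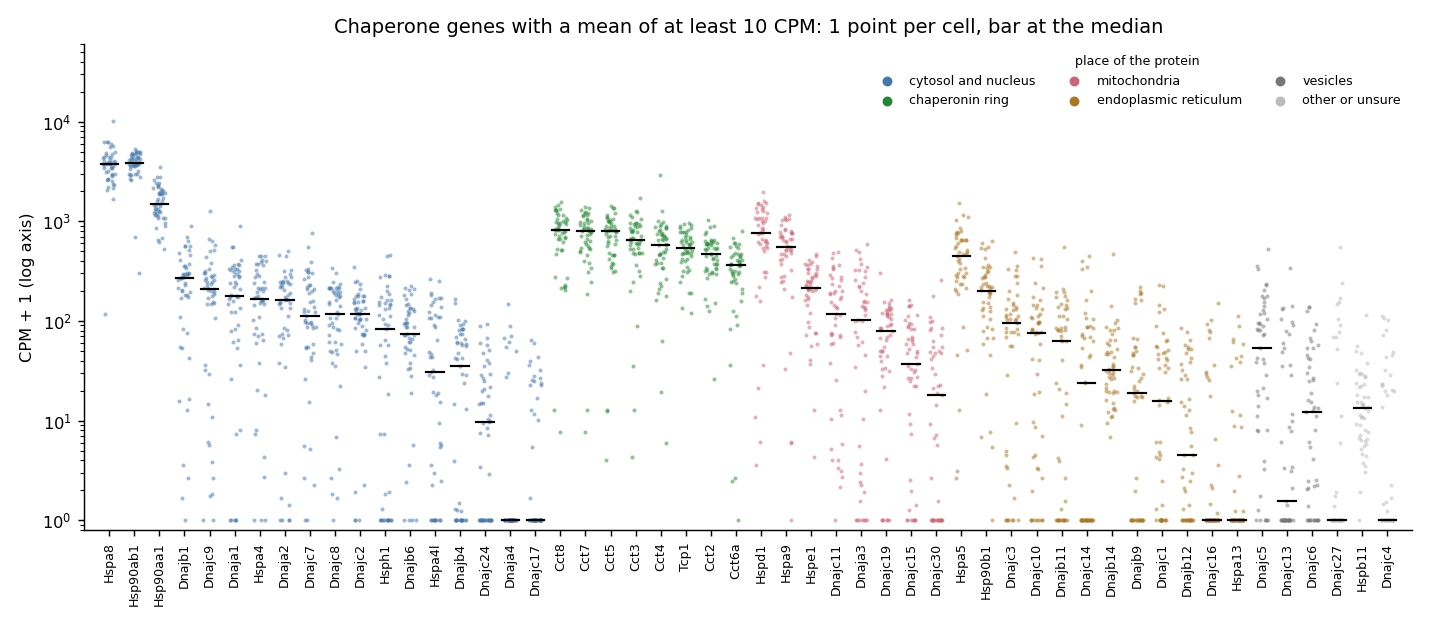
Level of the 52 chaperone genes that averaged 10 CPM or more, as CPM + 1 on a log axis, with 1 point per cell (n = 49), the bar at the median and the colour giving the place of the protein. Hspa8 and Hsp90ab1 stand highest, the medians of the 8 detected chaperonin subunits lie between 361 and 820 CPM, and many J proteins are at 0 in part of the cells.

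The constitutive cytosolic chaperones led the list. Hspa8 (HSC70, chr9:40800984-40810087, GRCm38), the Hsp70 that is on in all cells, ranged from 117 CPM in cell 9 over a median of 3760 to 10044 in cell 49, with a mean of 3831 ± 1541. Hsp90ab1 (chr17:45567775-45573271), the constitutive Hsp90, ranged from 301 CPM in cell 34 over a median of 3850 to 5302, with a mean of 3818 ± 982. Hsp90aa1 (chr12:110690605-110702728), the Hsp90 that stress can raise, ranged from 531 over 1479 to 3485 CPM, with a mean of 1620 ± 636, and its highest value was in cell 9. Per kilobase of the longest transcript, the mean was 1600 CPM for Hspa8, 1515 for Hsp90ab1 and 494 for Hsp90aa1, so the first pair stood apart from the third on this scale as well. Only 5 of the 80 genes reached 10 CPM in every kept cell, and these were the same 3 genes with Tcp1 and Cct2, chosen for mention after their values were seen.

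The inducible Hsp70 genes were nearly silent. Hspa1a (chr17:34969190-34972156) had no read in any of the 52 cells, and Hspa1b (chr17:34956436-34959238) had 1 read, in cell 41, at 0.751 CPM. A count of 0 in 49 cells allows a share of up to 6.12% of cells with a read, which limits detection and covers counting error only. This limit was taken as 3 over 49, and the exact interval used for other shares would be wider. No source used here names the transcript set behind the counts, and near-identical genes can share reads. Hspb1 (HSP27), the inducible small heat shock protein, had reads in 1 kept cell, cell 46, at 57.8 CPM, and in cell 10, which failed the filter, at 25.2. Hspa1l and Hspa12a, relatives of Hspa1a, had reads in 1 kept cell and in none, and Hspb6, another small heat shock protein, reached 10 CPM in 5.

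Other genes that heat shock can raise were on in most cells. Dnajb1 (HSP40), the J protein that most often serves Hsp70 in the cytosol, ranged from 0 to 896 CPM with a median of 266 and reached 10 CPM in 45 of 49 cells (91.8%, exact 95% interval 80.4% to 97.7%). Dnaja1 had a mean of 210 ± 174 CPM and reached 10 CPM in 42 cells. Hsph1 (HSP105, chr5:149614287-149636376), an exchange factor for Hsp70, had a mean of 103 ± 114 CPM and reached 10 CPM in 32 cells (65.3%, 50.4% to 78.3%), and its rank correlation with the total reads of a cell was 0.43. The constitutive exchange factor Hspa4 did so in 42 cells at a mean of 181 ± 138 CPM. Hsf1, the heat shock factor, had a mean of 89.7 ± 109 CPM and reached 10 CPM in 34 cells.

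The chaperonin subunits, which form 1 ring together, were on in nearly every cell. Median levels ran from 361 CPM for Cct6a to 820 for Cct8, and means ran from 139 CPM per kilobase for Cct6a to 394 for Cct5. Cct8 had a mean of 793 ± 387 CPM, Cct7 of 762 ± 337, Cct5 of 730 ± 337, Cct4 of 603 ± 437, Tcp1 of 552 ± 217 and Cct2 of 476 ± 206, and Cct3 averaged 340 CPM per kilobase. Each of the 8 detected subunits reached 10 CPM in at least 46 of 49 cells, whereas Cct6b, the testis form of the sixth subunit, had no read. Cct4 was highest in cell 9, at 2877 CPM.

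In mitochondria, Hspd1 (chr1:55077835-55088243) ranged from 2.56 over a median of 768 to 1964 CPM, with a mean of 802 ± 488. Its lid Hspe1 (chr1:55088132-55091307) ranged from 3.31 over 212 to 469 CPM, with a mean of 219 ± 118. Per kilobase the means were 331 CPM for Hspd1 and 283 for Hspe1, so they lay closer per length than as CPM. The annotated spans of both genes overlap at their starts and the strand setting of the count is not given, so reads from that stretch are uncertain. Hspa9 (mortalin, the mitochondrial Hsp70) had a mean of 561 ± 306 CPM. Its J proteins were lower and less widespread: Dnaja3 had a mean of 145 ± 155 CPM and reached 10 CPM in 34 cells, and Dnajc19, a part of the import motor, had a mean of 77.9 ± 58.4 CPM and did so in 42.

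In the endoplasmic reticulum, Hspa5 (chr2:34771970-34777547) ranged from 1.66 over 442 to 1525 CPM, with a mean of 476 ± 322. Hsp90b1 (chr10:86690209-86705509) had a mean of 218 ± 160 CPM, Dnajc3 of 109 ± 110 and Dnajb11, a J protein that delivers secretory clients to BiP, of 74.2 ± 95.7. Dnajb9 (ERdj4, chr12:44205559-44210326), a J protein that brings BiP to the stress sensor IRE1, was lower, at 41.4 ± 61.3 CPM, and reached 10 CPM in 30 cells (61.2%, 46.2% to 74.8%). Hspa5 and Hsp90b1 were on in nearly every cell, at 47 and 45 of 49, whereas each of these 3 J proteins had an SD above its mean.

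The cells were then compared by Cd34, Klf1 and Fos. Cells with at least 10 CPM of Cd34 (Cd34-high, n = 14) were set against the rest (n = 35), and cells at or above the median of Klf1 (735.5 CPM, n = 25) or of Fos (627.1 CPM, n = 25) against those below (n = 24 each). The splits overlapped: 13 of the 14 Cd34-high cells were Klf1-low, 10 were Fos-high, and 9 of the 25 Klf1-high cells were Fos-high. The comparisons therefore share cells, and each gene's values are given side by side rather than correlated between them. Depth moved with every split, with a median of 1083632 reads in Cd34-high cells against 2556759, of 3266415 in Klf1-high cells against 1032526, and of 1485611 in Fos-high cells against 2993788. Its part in the differences was not tested, and ratios after every cell was thinned to 85519 reads are given for the leading genes. Ratios are log2 of the mean CPM plus 1 in the high over the low cells, for genes that averaged 10 CPM or more.

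In Cd34-high cells chaperone genes took a smaller share of the reads. Their summed level was 16151 ± 2220 CPM in Cd34-high cells, from 13246 to 21254, and 20827 ± 4779 in Cd34-low cells, from 5455 to 32148, so the ranges overlapped. Of the 52 genes, 4 (7.69%) had a mean at least 2-fold higher and 9 (17.3%) at least 2-fold lower, beside 20.5% higher and 17.3% lower among all 8796 genes past that minimum. The share lower was that of all genes and the share higher was below it. The median log2 ratio was -0.35 for the chaperone genes and 0.02 for all genes. With median-of-ratios size factors the median of all genes moved to 0.19 and that of the chaperone genes to -0.13, a gap of like size. Without the 4 cells that stand apart or pair closely, 2 genes were higher and 10 lower, beside 20.8% and 17.4% of all genes. The share lower was then above that of all genes.

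The difference from Cd34-low cells was not the same in each place. The 8 mitochondrial genes had a median log2 ratio of -0.95 and each was below 0. The 8 chaperonin subunits had a median of -0.54, also with each below 0 and none past 2-fold, and the 18 cytosolic genes had a median of -0.40. The 12 genes of the endoplasmic reticulum had a median of 0.28, with 9 above 0. With medians in place of means over cells their median ratio was -0.14, beside -0.47 for all genes. Summed, the mitochondrial chaperones stood at 1113 ± 594 CPM in Cd34-high cells and 2406 ± 860 in Cd34-low cells, and the chaperonin at 3691 ± 833 and 5425 ± 1419. Those of the endoplasmic reticulum stood at 1401 ± 580 and 1125 ± 496 CPM.

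**Figure D2:**
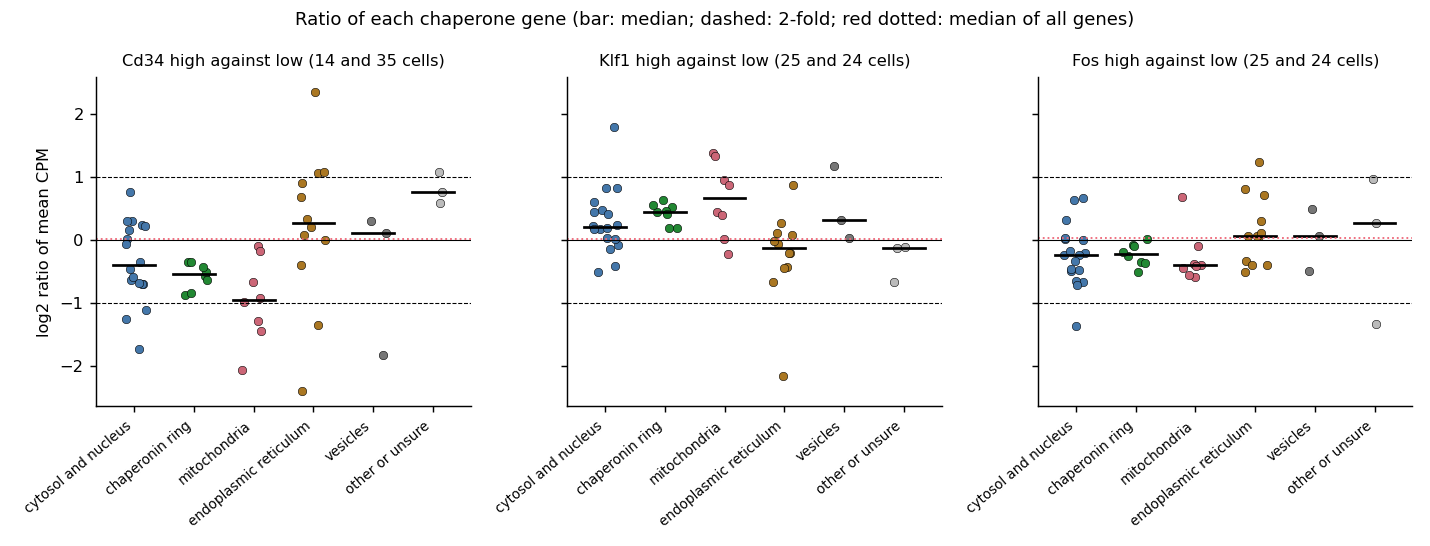
Log2 ratio of mean CPM for each of the 52 chaperone genes in cells high over low in Cd34, Klf1 and Fos, grouped by the place of the protein (points, genes; bars, medians; dashed lines, 2-fold; red dotted line, median of all genes). Every mitochondrial and chaperonin gene lies below 0 in the Cd34 panel, and every chaperonin gene lies above 0 in the Klf1 panel.

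Hspd1 was at 2.56 to 857 CPM in the 14 Cd34-high cells, with a median of 308, and at 9.94 to 1964 in the 35 others, with a median of 1011. Its log2 ratio was -1.29 (-1.40 thinned), and the ranges overlapped from 9.94 to 857 CPM. Hspa9 had means of 331 ± 229 and 654 ± 285 CPM, a log2 ratio of -0.98. Dnaja3, the J protein that works with Hspa9, reached 10 CPM in 4 of 14 Cd34-high and 30 of 35 Cd34-low cells, and its log2 ratio was -2.06 (-1.90 thinned). Dnajc11, a J protein of the mitochondrial membrane, reached it in 6 of 14 and 33 of 35, with a log2 ratio of -1.44. Hspe1 had a smaller ratio of -0.67.

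Dnajb9 had the highest ratio. It was at 0 to 217 CPM in Cd34-high cells with a median of 98.9, and at 0 to 66.8 in Cd34-low cells with a median of 16.4. The high group thus held every value above 66.8 CPM, with 7 cells at 151 to 217 CPM, while its other 7 cells, at 0 to 46.6, overlapped the other group. The log2 ratio was 2.36 (1.94 thinned). The other genes past 2-fold upward were Dnajc1, an endoplasmic reticulum J protein (log2 ratio 1.08), Dnajc10, a J protein with reductase activity there (1.07), and Hspb11 (1.09). Hspb11 is named for a heat shock protein but is a part of the transport machinery of cilia (IFT25), and Dnajb14, next in order at 0.91, is a membrane J protein of the endoplasmic reticulum. Without the 4 cells set apart, Dnajc1 stood at 0.99 and Dnajc10 at 0.98. Dnajb14 and Hspb11 had the lowest rank correlations with total reads of the 52 genes, -0.36 and -0.31, and the part of depth in their ratios was not tested further than by thinning (0.59 and 1.11).

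The lowest ratio belonged to Dnajc16, an endoplasmic reticulum J protein, at -2.41, though it reached 10 CPM in only 12 cells, 1 of them Cd34-high. Dnajc6 (auxilin, which uncoats clathrin vesicles in neurons) had a ratio of -1.83 and Dnaja4 of -1.74; the latter had reads in 9 cells, so its value rests on few. Hsph1 was also lower, with a median of 3.56 CPM in Cd34-high cells and 114 in the others and a log2 ratio of -1.26. The remaining genes past 2-fold downward were Dnajb12 at -1.36 and Dnajc9, a histone co-chaperone, at -1.11. Among cytosolic chaperones Hsp90aa1 had means of 1123 ± 354 and 1819 ± 617 CPM (log2 ratio -0.69), and Hspa8 of 3026 ± 715 and 4154 ± 1669 (-0.46). Hsp90ab1 was level, at 3861 ± 856 and 3800 ± 1039 CPM (0.02). Dnajb1 stood at 298 ± 246 and 252 ± 181 CPM, a ratio of 0.24.

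Other lists moved with the Cd34 split and their part in the chaperone values was not tested. The summed level of the 11 erythroid markers was 3818 ± 4301 CPM in Cd34-high cells (419 to 15975) and 12921 ± 4586 in Cd34-low cells (234 to 19878), and that of the 5 proliferation markers 423 ± 587 (0.853 to 1836) and 1515 ± 963 (19.9 to 3525). The 9 stem and multipotent progenitor markers, Cd34 among them, summed to 1669 ± 852 CPM (432 to 3010) and 59.0 ± 140 (0 to 632). Markers of other lineages moved with the split too. The 5 megakaryocyte markers summed to 764 ± 925 CPM (0 to 3000) in Cd34-high and 77.8 ± 198 (0 to 1099) in Cd34-low cells. The 6 neutrophil and monocyte markers had medians of 719 CPM (191 to 2941) and 1.75 (0 to 43436, the highest being cell 34). The dendritic and B lineage sums had medians of 95.4 and 25.3 CPM and of 0.442 and 0.248, and the T lineage sum was at most 1.66 CPM in any kept cell.

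Klf1-high cells held more chaperone reads. Their summed level was 21827 ± 3914 CPM, from 17067 to 32148, against 17057 ± 4236 in Klf1-low cells, from 5455 to 23131. By gene, 4 of the 52 (7.69%) were at least 2-fold higher and 1 (1.92%) at least 2-fold lower, beside 10.4% and 17.8% of all genes. The median log2 ratio was 0.20 for the chaperone genes and 0.02 for all genes. With size factors the medians were 0.09 and -0.11, and without cells 9, 13, 23 and 34 they were 0.04 and -0.04, so the member median came down by 0.16 without those 4 cells. Across cells the summed level had a rank correlation of 0.57 with Klf1, -0.63 with Cd34 and 0.43 with total reads (n = 49 cells, which share library chemistry and differ in depth).

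The mitochondrial sum was 2612 ± 701 CPM in Klf1-high cells, from 1466 to 4009, and 1437 ± 879 in Klf1-low cells, from 58.5 to 3270. The chaperonin sum was 5634 ± 1208 CPM, from 2888 to 8549, against 4196 ± 1433, from 919 to 7198, and the endoplasmic reticulum sum was 1157 ± 474 against 1252 ± 589 CPM. By gene, the median log2 ratio was 0.66 for mitochondria, with 7 of 8 above 0, and 0.45 for the chaperonin, with 8 of 8. It was 0.21 for the cytosol and -0.13 for the endoplasmic reticulum. The last of these values was 0.31 with medians in place of means, beside 0.47 for all genes. Within the 35 Cd34-low cells the mitochondrial median was 0.33 and the chaperonin median 0.26, beside 0.20 for all genes, so there the 2 groups lay close to other genes.

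**Figure D3:**
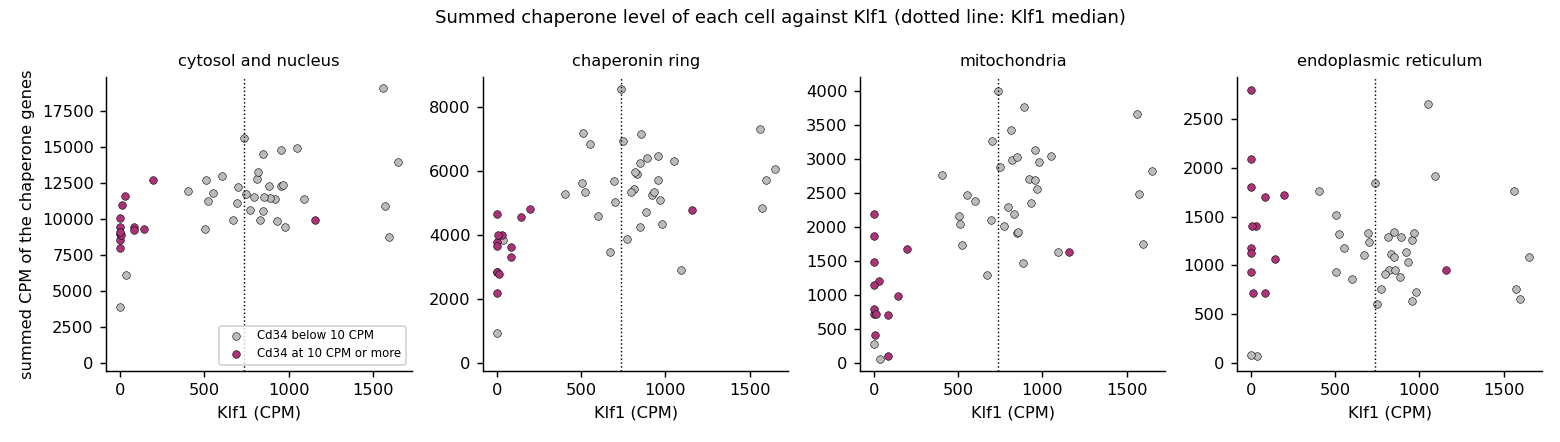
Summed CPM of the chaperone genes of 4 places in each cell (vertical axes) against its Klf1 level in CPM (horizontal axes), with Cd34-high cells (n = 14) coloured and the dotted line at the Klf1 median. Mitochondrial and chaperonin sums are lowest in cells with little Klf1, and the endoplasmic reticulum sum shows no such order; the lowest point of each panel is cell 9 or cell 34.

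Hspd1 was at 503 to 1964 CPM in Klf1-high cells with a median of 1011, and at 2.56 to 1348 in Klf1-low cells with a median of 539. No Klf1-high cell fell under 503 CPM, but the groups overlapped above it, and the log2 ratio was 0.95 (0.95 thinned, 0.68 without the 4 cells). Hspa9 had means of 723 ± 250 and 394 ± 268 CPM, a ratio of 0.88. Dnajc11 had means of 212 ± 131 and 80.3 ± 105 CPM and a ratio of 1.39, which was 0.07 when all 52 cells were used. Cell 10, which failed the filter with 39692 reads, held 3326 CPM of Dnajc11, against at most 493 in the kept cells. Dnaja3 had a ratio of 1.33, Dnajc6 of 1.18 and Dnaja4 of 1.79, the last from 7 Klf1-high and 2 Klf1-low cells with reads. In the chaperonin the ratios ran from 0.19 for Cct2 and Cct4 to 0.64 for Cct6a, with Tcp1 at 0.56 (655 ± 163 and 445 ± 218 CPM). Cell 9, with 2877 CPM of Cct4, was among the Klf1-low cells.

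Dnajb9 was the single gene past 2-fold downward. It was at 0 to 54.3 CPM in Klf1-high cells, with 12 of 25 at 10 CPM or more, and at 0 to 217 in Klf1-low cells, with 18 of 24. Its log2 ratio was -2.16 (-1.60 thinned), and -0.86 within Cd34-low cells, where it was no longer past 2-fold. Next came Dnajb14 at -0.67, Hspb11 at -0.66, Dnajc17, a J protein of the spliceosome, at -0.51, and Dnajc14 at -0.44. Hspa5 and Hsp90b1 stayed level, at 490 ± 322 and 461 ± 328 CPM (log2 ratio 0.09) and at 214 ± 113 and 222 ± 199 (-0.06); without the 4 cells Hspa5 stood at -0.32. Hspa8 had means of 4437 ± 1685 and 3201 ± 1087 CPM (0.47), Hsp90aa1 a ratio of 0.23, Hsp90ab1 of 0.18, Hsph1 of 0.84, Dnaja1 of 0.02 and Dnajb1 of -0.08. In Klf1-low cells Hsph1 was at 0 to 444 CPM with a median of 16.4, the highest value being cell 9.

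The proliferation markers summed to 1629 ± 974 CPM in Klf1-high cells (58.7 to 3525) and 759 ± 830 in Klf1-low cells (0.853 to 2646), and the erythroid markers, Klf1 among them, to 14264 ± 3861 and 6212 ± 5244. The megakaryocyte sum had medians of 3.19 CPM in Klf1-high and 231 in Klf1-low cells, and the neutrophil and monocyte sum of 17.3 and 464 CPM. The mitochondrial sum had a rank correlation of 0.60 with Klf1, 0.36 with the proliferation sum and 0.42 with total reads. The part of proliferation, of other lineages and of depth in the Klf1 ratios was not tested.

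Cells high in Fos were not high in chaperones. Their summed level was 18058 ± 3913 CPM, from 5455 to 23845, against 20983 ± 5052 in Fos-low cells, from 10033 to 32148. Of the 52 genes, 1 (1.92%) was at least 2-fold higher and 2 (3.85%) at least 2-fold lower, beside 14.2% and 7.3% of all genes. The median log2 ratio was -0.22 for the chaperone genes and 0.04 for all genes, and the median rank correlation with Fos was -0.11 and -0.06. The other immediate early genes did move with Fos: 13 of 14 were at least 2-fold higher in Fos-high cells and none lower. Within Klf1-high cells alone, split at their own Fos median, the member median was -0.16, and within Klf1-low cells it was -0.04.

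Hspa1a and Hspa1b stayed at or near 0 in these cells, although Fos was at 100 CPM or more in 39 of the 49. The 1 cell with an Hspa1b read, cell 41, was Fos-low. Dnajb1 was at 0 to 630 CPM in Fos-high cells with a median of 228, and at 11.7 to 896 in Fos-low cells with a median of 270, so the groups overlapped and the log2 ratio was -0.24. Hspa8 had means of 3564 ± 981 and 4109 ± 1948 CPM (-0.21), and Hsp90ab1 of 3818 ± 1068 and 3817 ± 906 (0.00).

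Hsph1 had the lowest ratio. It was at 0 to 287 CPM in Fos-high cells with a median of 6.27, and at 0 to 453 in Fos-low cells with a median of 142. It reached 10 CPM in 11 of 25 and 21 of 24 cells, the log2 ratio was -1.38 (-1.17 thinned) and the rank correlation with Fos was -0.39. Within Klf1-high cells the ratio was -0.13 and within Klf1-low cells -0.74, neither past 2-fold. Dnajc4 followed at -1.34 (-0.64 thinned), with 4 of 25 Fos-high and 14 of 24 Fos-low cells at 10 CPM, and it had the lowest rank correlation with Fos, -0.46. Hspa4l, Dnaja1 and Dnajc8 had ratios of -0.71, -0.67 and -0.65. Hsp90aa1 had means of 1357 ± 571 and 1894 ± 592 CPM, a ratio of -0.48 and a rank correlation of -0.31, and Cct4 and Dnajc24 had correlations of -0.30 and -0.29.

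**Figure D4:**
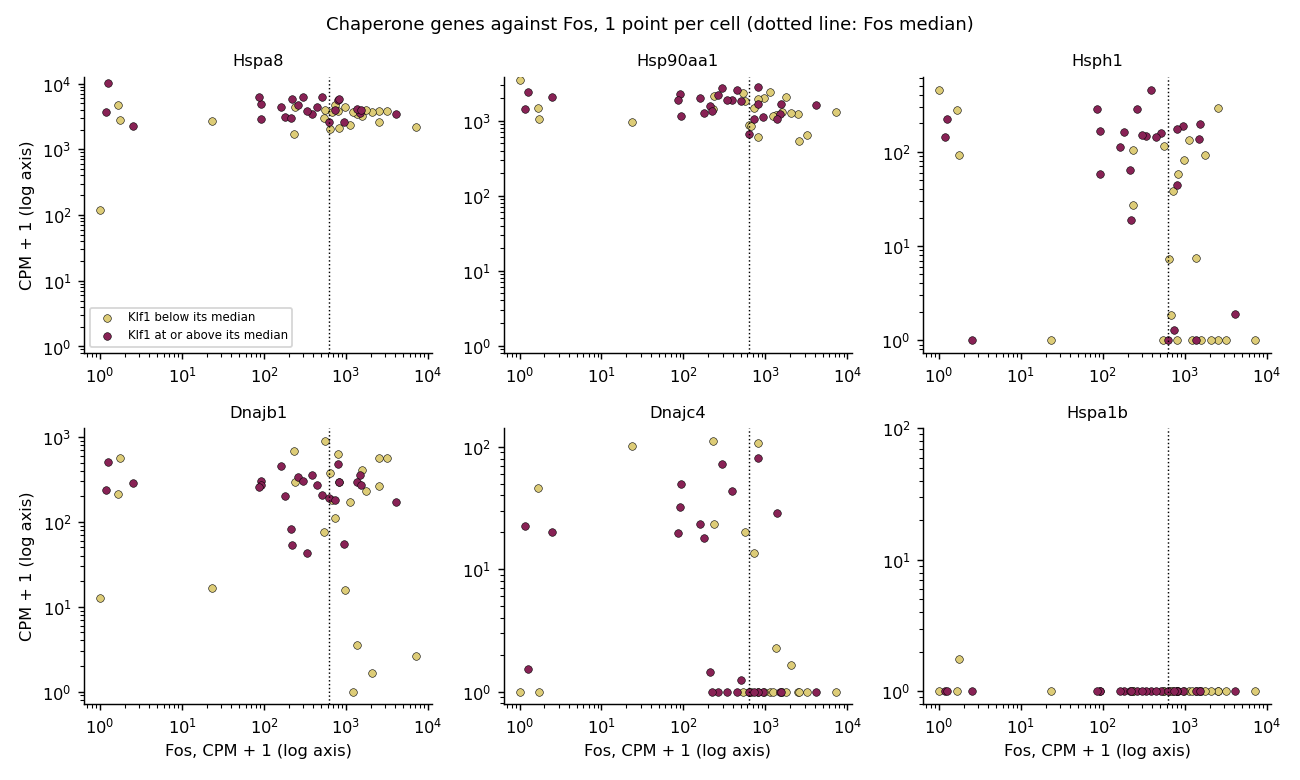
CPM + 1 of 6 chaperone genes (vertical axes) against Fos CPM + 1 (horizontal axes), both on log axes, with 1 point per cell (n = 49), the dotted line at the Fos median and the colour giving the Klf1 group. Hsph1 and Dnajc4 are at or near 0 in many Fos-high cells, Hspa8 spans 2059 to 5900 CPM right of the line and 117 to 10044 left of it, Hsp90aa1 531 to 2788 and 962 to 3485, and Hspa1b is at 0 in every cell but 1.

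At the other end, Dnajc1 had means of 51.1 ± 68.1 CPM in Fos-high and 21.1 ± 23.4 in Fos-low cells, a log2 ratio of 1.24, which was 0.90 without the 4 cells and 0.17 within Klf1-high cells. Hspb11 followed at 0.98, Dnajb9 at 0.82, Dnajb14 at 0.72 and Dnajc30, a mitochondrial J protein, at 0.68. The highest rank correlations with Fos were 0.26 for Dnajb14, 0.25 for Hspb11, 0.16 for Dnajc7, 0.15 for Dnajc1 and 0.12 for Dnajb9. By place, the median ratio was -0.40 for mitochondria, -0.22 for the chaperonin, -0.24 for the cytosol and 0.07 for the endoplasmic reticulum. The mitochondrial value was -0.076 within Klf1-high and -0.10 within Klf1-low cells. Fos itself had rank correlations of -0.28 with Klf1, 0.31 with Cd34 and -0.32 with total reads, and the neutrophil and monocyte sum had medians of 234 CPM in Fos-high and 6.72 in Fos-low cells; their part in these ratios was not tested.

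Chaperone genes varied together from cell to cell somewhat more than other genes. The median rank correlation over the 1326 pairs of the 52 genes was 0.13, beside 0.06 over all pairs of the 8796 genes, and without the 4 cells the values were 0.09 and 0.03. It was 0.33 within the chaperonin, 0.28 within mitochondria, 0.30 between these groups, 0.14 within the cytosol and 0.08 within the endoplasmic reticulum. All are descriptions over 49 cells that share depth and lineage differences. The chaperone genes and all genes were not matched by level: 35 of the 52 and 4460 of the 8796 averaged 50 CPM or more. The part of level in these correlations was not tested. The summed mitochondrial and chaperonin levels had a rank correlation of 0.76.

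Hspd1 and Hspe1, the head-to-head pair shown above, had a correlation of 0.72, followed by Cct5 and Cct8 at 0.69 and Hspa9 and Hspd1 at 0.68. After thinning the order was another, with Cct5 and Cct8 at 0.64 and both pairs with Hspd1 at 0.59. For Hspd1 and Hspe1 the value was 0.54 within Klf1-high and 0.84 within Klf1-low cells. Hspa5 and Hsp90b1, which share the endoplasmic reticulum stress element, had a correlation of 0.42 (0.47 thinned), and Hspa5 had 0.33 with Dnajb11, 0.26 with Dnajb9 and 0.12 with Dnajc3, which holds the element too. The cytosolic Hsp90 genes did not move together, at -0.16. Hspa8 had correlations of 0.35 with Hsph1, 0.23 with Dnaja1 and 0.16 with Dnajb1. The lowest value was -0.48, between Hspb11 and Hsph1.

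**Figure D5:**
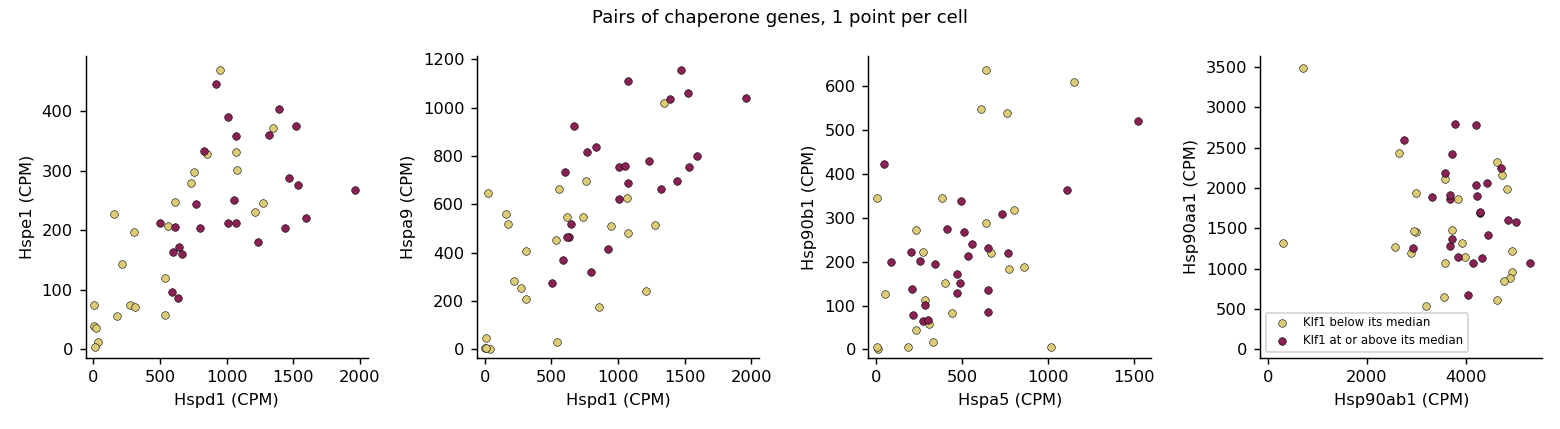
CPM of 4 pairs of chaperone genes with 1 point per cell (n = 49), coloured by the Klf1 group. Cells high in Hspd1 are high in Hspe1 and Hspa9, Hspa5 and Hsp90b1 are looser, and Hsp90ab1 and Hsp90aa1 show no common order, with cell 9 the point at the top left of the last panel.

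Genes that work with these chaperones were also counted, from a list of 52 genes, each past the same minimum. None was at least 2-fold higher and 4 were lower in Cd34-high cells, with a median log2 ratio of -0.21; in Klf1-high cells 3 were higher and 1 lower (median 0.15), and in Fos-high cells 3 were higher and 4 lower (median -0.13). The 4 lower by Cd34 are 7.69% of the list beside 17.3% of all genes, the 3 higher by Klf1 5.77% beside 10.4%, and the 4 lower by Fos 7.69% beside 7.3%, so none of these shares stood clearly above that of all genes. Of the 21 partners of Hsp70 and Hsp90, 3 were lower in Cd34-high cells and 2 higher in Klf1-high cells, with medians of -0.50 and 0.60, and these counts, 14.3% and 9.52% of the list, lay near the 17.3% and 10.4% of all genes. These 3 were Fkbp4 (log2 ratio -1.32), Bag5 (-2.71) and Bag3 (-2.16), and Fkbp4, a prolyl isomerase on Hsp90, had a mean of 509 ± 308 CPM and stood at 0.96 in Klf1-high cells. The 16 genes of the endoplasmic reticulum had medians of 0.19 and 0.06, and the 6 mitochondrial ones of -0.44 and 0.31. Among the former, Sdf2l1, which binds BiP, had a ratio of -2.69 in Cd34-high cells, whereas the unfolded protein response factors Atf4, Ddit3 and Xbp1 stood at 0.89, 0.79 and 0.39. In Fos-high cells those 3 stood at 0.74, 1.12 and 0.69, whereas the 16 genes together had a median of -0.17. By Fos, 6 of the 16 lay above 0 and 10 below. The prefoldin subunits, which pass actin and tubulin to the chaperonin ring, had medians of -0.35 by Cd34 and 0.02 by Klf1, with none of 6 past 2-fold.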

How the data were processed

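The authors deposited 1 table of estimated counts (expected counts) per gene, which need not be whole, for 52 single-cell libraries. The submitters' processing notes name Trim Galore 0.5.0, Salmon 0.03.1 and the build GRCm38, printed as given there. The transcript set, how transcripts were summed to genes, strand and any earlier filter were not given in the sources used here. Values that were not whole (4.23%) were rounded to reads and scaled to CPM by the total of the cell, with Python 3.11.15, numpy 2.4.6, pandas 2.3.3 and scipy 1.17.1. Symbols, spans and lengths came from GENCODE M21. Cells 5, 10 and 12 failed the cell filter, and no doublet caller was run on so few wells.

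The chaperone genes, the gene lists and the comparisons were chosen with earlier results of these data known, and the place of each protein was assigned from general knowledge. Named genes were a fixed set of central chaperones, the 5 highest and 5 lowest log2 ratios of each comparison and the 5 highest and lowest rank correlations with Fos; other genes named as past 2-fold, or among partners and factors, were added after their values were seen. The cells form 1 sample, so there are no p-values or standard errors, SDs are over cells, and intervals (Clopper-Pearson) and limits for a count of 0 cover counting error only, since PCR copies are not separate molecules. The ratio script was tested on simulated data. Alternatives were other scaling, thinning, minimums, pseudocounts, cell sets, splits and medians. Reads of near-identical genes and of processed pseudogenes (Hspa1a and Hspa1b, Hspa8, Hsp90ab1, Hspd1, Hspe1) are uncertain in their split.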

Additional observations from a re-analysis of the deposited data

Results flagged for a closer look

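The 3 cells left out by the cell filter held Hspa8 reads above the limit that a count of 0 allows. Cell 5, with 28.3% mitochondrial reads, held 127 Hspa8 reads, or 413 CPM, over a limit of 9.76 CPM. Cell 10, with 39692 reads, held 12, or 302 CPM, over 75.6. Cell 12, with 32439 reads, held 69, or 2127 CPM, over 92.5. Their summed chaperone levels were 8788, 8642 and 11375 CPM, below the median of 19334 of the kept cells. Among the kept cells only cell 34 (5455) and cell 9 (10033) lay under 11375 CPM, and the next was cell 41 at 13246. Hspa8 in cells 5 and 10 was below its level in every kept cell but cell 9 (117 CPM).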

How the results depend on the processing

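Counts past 2-fold rest on few genes, and depth and zeros limit them. By Cd34 (4 higher, 9 lower) the counts were 7 and 16 with no minimum level, 1 and 5 at a minimum of 50 CPM, 2 and 18 with medians, and 1 and 5 with any read of Cd34; 2 were higher without cells 9, 13, 23 and 34 and 1 with a pseudocount of 10. By Klf1 (4 and 1) they were 9 and 5, 2 and 0 at 50 CPM, and 10 and 2 for the 16 highest against the 16 lowest cells; 12 were higher with medians, 2 with a pseudocount of 10, and 0 were lower within Cd34-low cells. By Fos (1 and 2) they were 6 and 6 with no minimum, 0 and 1 at 50 CPM, 0 and 1 with a pseudocount of 10, 2 and 5 with all 52 cells, and 5 and 5 within Klf1-low cells; 2 were higher with size factors or in cells of at least 500000 reads, 0 without the 4 cells, 1 was lower after thinning and 13 with medians. With medians 10.5% of all genes were higher and 40.3% lower by Cd34, 37.1% and 6.24% by Klf1 and 5.70% and 33.2% by Fos, so the larger chaperone counts there stayed below the share of all genes. Under the other settings those shares ran from 11.7% to 24.8% and 11.4% to 18.4% by Cd34, 6.48% to 20.1% and 9.30% to 21.8% by Klf1, and 6.75% to 18.1% and 4.16% to 16.7% by Fos. With no minimum 69 chaperone genes were counted. The shares of all genes were then 20.6% and 16.8% by Cd34, 10.8% and 19.2% by Klf1, and 16.4% and 8.93% by Fos. At 50 CPM 35 were counted, beside 11.7% and 14.6%, 7.26% and 10.3%, and 6.75% and 4.33%. With no minimum the 16 lower by Cd34 and the 9 higher by Klf1 stood above the share of all genes. So did the 5 lower by Fos with all 52 cells, beside 7.25%, and the 10 lower by Cd34 without the 4 cells, beside 17.4%.

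Of the medians by place, the cytosol stood at -0.10 by Cd34 with size factors. Mitochondria stood at -1.46 with medians and -0.66 with any read of Cd34, at 1.07 by Klf1 for the 16 extreme cells on each side and 0.33 within Cd34-low cells, and by Fos at -0.063 for the 16 extreme cells, -0.076 within Klf1-high and -0.10 within Klf1-low cells. The endoplasmic reticulum turned to -0.14 by Cd34 and 0.31 by Klf1 with medians, and by Fos to -0.48 within Klf1-high cells and -0.22 in cells of at least 500000 reads. The cause was not tested. Medians over cells also moved the median of all genes, to -0.47, 0.47 and -0.34. For single named genes, 1183 of the values under an alternative kept their direction and side of 2-fold, 99 stayed under 2-fold but turned direction, 45 fell short of 2-fold, 48 passed it, and 11 passed it in the other direction from a ratio under 2-fold. Among the 99 that turned, the largest main log2 ratio was 0.87 in size. The subset of cells below the Klf1 median, those under 10 CPM of Cd34 and those of at least 500000 reads were chosen after seeing the data. No paired analysis was possible because all cells carry 1 label.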

Other observations

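The summed level of the other immediate early genes went against the summed chaperone level more clearly than Fos did: the rank correlations were -0.66 and -0.24 over 49 cells. The immediate early sum was 7295 ± 4268 CPM in Cd34-high and 2941 ± 4644 in Cd34-low cells, so this list and the chaperone sum both differ along the Cd34 split. At least 2-fold lower in Klf1-high cells were 11 of the 14 immediate early genes, beside 1 of the 52 chaperone genes and 17.8% of all genes.

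Hsf2, a relative of the heat shock factor Hsf1, had a mean of 23.5 ± 43.7 CPM and a log2 ratio of -1.45 in Klf1-high cells, whereas Hsf1 stood at 0.06. Canx and Calr, the lectin chaperones of the endoplasmic reticulum, had means of 136 and 240 CPM per kilobase, and their log2 ratios by Cd34 were -0.78 and 0.01. Fkbp5, a glucocorticoid-inducible Hsp90 partner, had a ratio of 0.87 by Cd34 and -0.91 by Klf1, and Fkbp4 had ratios of the opposite sign, but Fkbp5 reached 10 CPM in 13 cells.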
